A study of Homo sapiens with 4 samples.

Results

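The genes described here encode FAK, SRC, PAK and the adaptor and linker proteins of integrin adhesions. They are the 10 genes PTK2, PTK2B, SRC, PAK1, PAK2, BCAR1, PXN, TLN1, ILK and PARVA, chosen by name, and all 10 were found among the 19475 gene symbols of the deposited table. RNA-seq was performed on the established ovarian cancer line SKOV3, of human origin, in 4 libraries. Cells on a tissue culture plate (TCP, day 0 in the labels) gave 2 libraries, and tumor spheroids cultured on a plate coated with polymer X, a polymer thin film (day 8), gave the other 2. The labels name no altered gene and no inhibitor for either group. Maintenance culture was described with fetal bovine serum and spheroid culture with serum replacement, while the labels give serum replacement for all libraries, so substrate, day and possibly medium changed together and cannot be told apart. No source states that the libraries of a group came from separate cultures, so the spread between them may be technical. Values are FPKM, that is, sequenced tags divided by the length of the transcript and by the tags of the library. This unit allows levels of different genes to be set side by side.

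Integrins that bind fibronectin have no enzyme activity of their own. Talin (TLN1) binds the cytoplasmic tail of integrin and links it to actin, and paxillin (PXN) serves as a scaffold at the same site. FAK (PTK2) is recruited there, phosphorylates itself and binds SRC, and this pair phosphorylates paxillin and p130Cas (BCAR1). ILK is a pseudokinase that holds parvin (PARVA) and PINCH in a complex under integrin, and the PAK kinases act on the actin cytoskeleton below RAC and CDC42. The study asked whether this route from fibronectin through FAK and SRC passes a signal to STAT3, and it measured PAK2 as a STAT3 target. With a FAK inhibitor it reported less phosphorylated SRC but unchanged phosphorylated STAT3. The authors hypothesized from this that the canonical FAK route did not mediate STAT3 activation. Of the STAT3 targets, their text reports a rise of EGR1 and PTGS1 and gives no direction for PAK2 on polymer X. Only RNA was measured in these libraries, not the phosphorylation of any protein.

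Sequences are given for the genes with the largest falls and for the paralog pair PAK1 and PAK2, whose RNA ratio is described further on. The study quantified PAK2 with a pair of primers, whose sequences run 5′ to 3′.
PAK2 forward primer: acagaagcacccgcagtag
PAK2 reverse primer: aaagacttggcagcaccatc
In the GENCODE transcript matched to NM_002577, these primers bound coding exons 6 and 7 and enclosed 170 bases of the 6139-base transcript (GRCh38, chr3:196806594-196806612 and chr3:196807839-196807858). Both primers were found together in transcripts of PAK2 and of no other gene in that annotation.

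The 250 bases before the start of transcription were taken from the RefSeq promoter table (GRCh38.p14), and 11 windows of 6 of the 10 genes were used. No window of PTK2, PTK2B, SRC or PARVA was used, so the counts below do not cover them. Each window is printed 5′ to 3′ on the strand of its gene, and capitals mark GGGCGG on either strand, the GC box bound by SP1.
TLN1, chr9:35732196-35732445, minus strand: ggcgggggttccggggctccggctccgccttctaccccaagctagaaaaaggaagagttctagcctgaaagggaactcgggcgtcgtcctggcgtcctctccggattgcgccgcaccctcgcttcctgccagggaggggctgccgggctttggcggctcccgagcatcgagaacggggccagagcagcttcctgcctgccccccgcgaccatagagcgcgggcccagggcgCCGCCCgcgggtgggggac
PAK2, chr3:196739607-196739856, plus strand: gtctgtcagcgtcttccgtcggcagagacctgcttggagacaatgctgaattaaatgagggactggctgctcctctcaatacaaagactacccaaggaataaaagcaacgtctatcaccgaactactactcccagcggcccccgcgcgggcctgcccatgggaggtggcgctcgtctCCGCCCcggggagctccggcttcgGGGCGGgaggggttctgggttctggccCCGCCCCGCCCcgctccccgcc
PAK1, chr11:77411972-77412221, minus strand: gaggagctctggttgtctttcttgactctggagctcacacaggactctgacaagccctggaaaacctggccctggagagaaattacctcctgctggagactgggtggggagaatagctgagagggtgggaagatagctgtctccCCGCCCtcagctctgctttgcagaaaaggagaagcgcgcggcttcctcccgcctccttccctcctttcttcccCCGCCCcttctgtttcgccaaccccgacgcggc
The GC box was present once in the TLN1 window, at 4 places in that of PAK2 and at 2 places in that of PAK1. It was held by 9 of the 11 windows of these genes, several of which belong to BCAR1, and by 42.6% of all 35116 windows of this length. This difference was not tested. The PAK2 window held 20 CG pairs and the PAK1 window 10, against a median of 11.0 over all windows. Windows were matched by gene symbol, not by transcript, and that of PAK1 was not placed at the start of NM_002576, whose level is given further on. The PAK1 and PAK2 windows are therefore no comparison of the starts of the RNAs whose ratio is given. For PXN, the window of the more downstream of its 2 listed starts is printed with capitals for TTCNNNGAA, the pattern bound by STAT factors, followed directly by GGAATG on the opposite strand, the core bound by TEAD factors.
PXN, chr12:120250164-120250413, minus strand: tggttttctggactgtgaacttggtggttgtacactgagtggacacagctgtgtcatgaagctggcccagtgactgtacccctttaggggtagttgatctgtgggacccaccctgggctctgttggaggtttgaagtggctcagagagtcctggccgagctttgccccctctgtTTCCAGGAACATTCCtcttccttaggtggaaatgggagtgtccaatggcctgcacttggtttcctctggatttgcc
The window of the more upstream PXN start held the GC box at 8 places, and TTCNNNGAA and GGAATG at 0 places. NM_002859, whose level is given further on, has the more upstream start, so the printed PXN window is not that of this transcript. Of all windows, 6.57% held TTCNNNGAA and 11.9% held GGAATG on either strand. Among the 11 windows of these genes, 2 held the former and 1 held the latter, and 0 held a CArG box, which 1.16% of all windows held. A match describes these letters only and is not evidence of binding.

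Of these genes, TLN1, PXN, ILK, PARVA and PAK2 were lower on polymer X, PTK2 was higher, and SRC, PAK1 and BCAR1 did not pass the test. Of the 10 genes, 9 reached an FPKM of 1 in 2 or more libraries and were tested with all other genes in limma on log2(FPKM + 1). At an adjusted p under 0.05, 5 of 9 fell and 1 of 9 rose, where 43.6% of all 11964 tested genes fell and 37.4% rose. A log2 fold change of at least 1 in addition, the minimum used here for a call, was reached by 0 of 9 genes with limma, against 20.2% of all tested genes, and 6 of 9 had an unadjusted p under 0.05 (82.0% of all tested genes). At a minimum of 0.5, TLN1, PAK2 and PXN were lower, 3 of 9, and 0 were higher with limma, against 26.7% lower and 23.6% higher (50.4% in either direction) of all tested genes. With quantile normalization, which gives every library the same distribution of values, PAK2 (-0.50) was the lower gene past 0.5 and PTK2 (0.52) the higher, while TLN1 was at -0.49, PARVA at -0.30 and PXN at -0.21. For the 9 genes the log2 fold changes had a median of -0.41, and that of all tested genes was -0.06. Among all genes whose mean FPKM was 5 or more, it was -0.20. With quantile normalization these medians were -0.10 for the 9 genes and -0.05 for all tested genes. All 9 of these genes had polymer X and TCP values that did not overlap, as had 90.4% of all tested genes. In bulk RNA, fewer cells with a transcript and less of it per cell cannot be told apart.

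**Figure D1:**
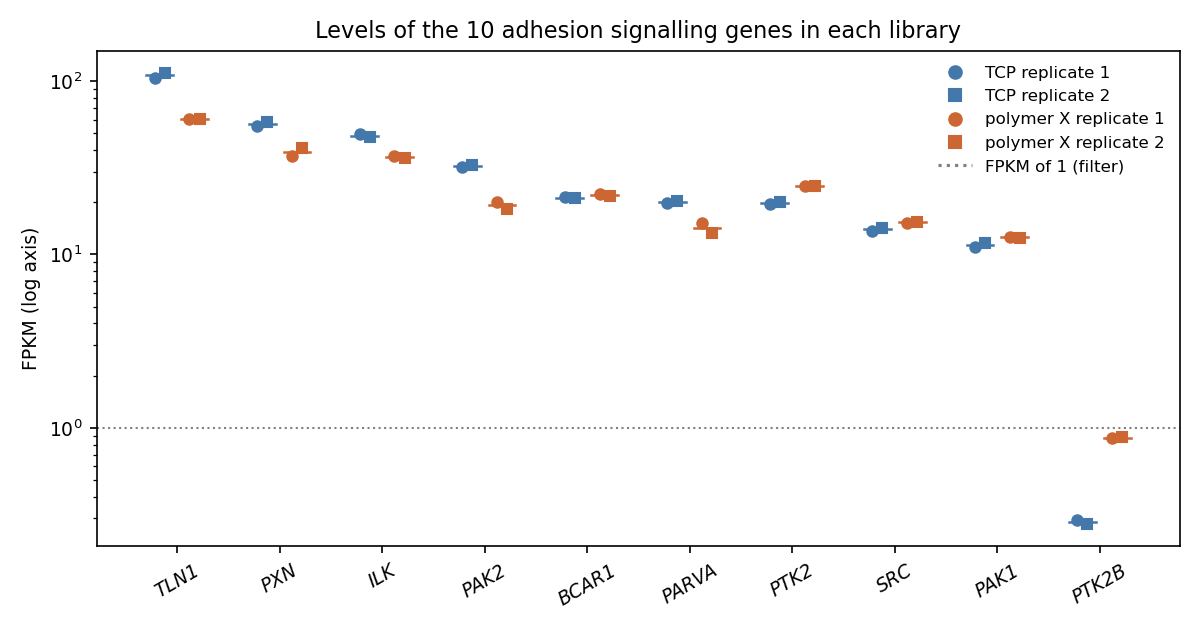
FPKM of the 10 genes (log axis) in TCP replicates 1 and 2 and polymer X replicates 1 and 2; points are libraries, short lines are group means, and the dotted line is the FPKM of 1 used as a filter. TLN1 has the highest values, 105 and 111 on TCP against 60.5 and 60.9 on polymer X, and PTK2B lies below 1 in all 4 libraries.

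The talin gene TLN1 (NM_006289, hg19 chromosome 9, 35697334 to 35732392) had the highest level of the 10 genes and the largest fall. Its FPKM was 105 and 111 in TCP replicates 1 and 2 and 60.5 and 60.9 in polymer X replicates 1 and 2. Both TCP libraries lay far above both polymer X libraries, and the means were 108 ± 4.50 and 60.7 ± 0.284 (SD, n = 2 in each group here and below). On the log2 scale the fold change was -0.82, with a standard error of 0.06 (limma adjusted p = 9e-07). At 20279 to 41775 tags per library, counting error was small beside this difference. CREB3, on the opposite strand, overlaps the span of TLN1 by 76 bases, and tags were counted without regard to strand.

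Paxillin, encoded by PXN (NM_002859, chromosome 12, 120648242 to 120703574), was the next in level. Its FPKM was 54.9 and 57.9 on TCP and 37.2 and 41.2 on polymer X. The groups did not overlap, although the polymer X libraries differed from each other more than those of TLN1 did. PXN differed by -0.51 in log2 fold change, with a standard error of 0.06 (limma adjusted p = 5.7e-05), and with quantile normalization by -0.21 (adjusted p = 0.023). The 4 PXN transcripts listed all had this value when rounded.

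Both listed members of the ILK complex, ILK and PARVA, fell, while other genes of that complex, given further on, went both ways. ILK (NM_001014794, chromosome 11, 6624938 to 6632105) had an FPKM of 49.3 and 47.7 on TCP and 36.8 and 35.8 on polymer X. The TCP values were the higher, at -0.41 in log2 fold change with a standard error of 0.05 (limma adjusted p = 8.5e-05). With quantile normalization the value for ILK was -0.10 (adjusted p = 0.082 from limma), so whether it passed the test depended on the scaling. Its span overlaps that of TAF10 on the opposite strand by 58 bases, and the FPKM of TAF10 was 93.5 on TCP and 60.7 on polymer X on average. PARVA (NM_018222, chromosome 11, 12399118 to 12556903), which encodes the actin-binding partner of ILK, had an FPKM of 19.8 and 20.4 on TCP and 15.1 and 13.3 on polymer X. Both TCP values of PARVA lay above both polymer X values, at -0.47 in log2 fold change with a standard error of 0.07 (limma adjusted p = 0.00017).

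Of the paralogs PAK1 and PAK2, which encode kinases activated by RAC and CDC42, PAK2 fell and PAK1 did not pass the test. PAK2 (NM_002577, chromosome 3, 196466728 to 196559518) had an FPKM of 32.1 and 32.7 on TCP and 20.2 and 18.2 on polymer X. All of its TCP values were higher, at -0.73 in log2 fold change with a standard error of 0.06 (limma adjusted p = 4.6e-06). PAK1 (NM_002576, chromosome 11, 77033060 to 77185108) had an FPKM of 11.0 and 11.7 on TCP and 12.6 and 12.5 on polymer X. Its log2 fold change was 0.13 (95% interval -0.01 to 0.27, adjusted p = 0.073 from limma), and it passed the threshold after scaling to equal library medians (0.17, adjusted p = 0.022 from limma) and with quantile normalization (0.24, adjusted p = 0.0049 from limma). PAK1 made up 25.6% and 26.4% of the summed FPKM of the pair on TCP and 38.5% and 40.6% on polymer X. The PAK1 to PAK2 ratio was thus 0.344 and 0.358 on TCP and 0.626 and 0.685 on polymer X. An exact two-sided permutation test of 2 libraries against 2 gave p = 0.333, the smallest it allows. With the transcripts of each gene summed, which counts tags shared by the 2 listed PAK1 transcripts repeatedly, the mean ratio was 0.697 on TCP and 1.30 on polymer X, so that PAK1 was then the higher on polymer X.

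SRC (NM_198291, chromosome 20, 35974531 to 36033835) and its substrate BCAR1 (NM_001170718, chromosome 16, 75262085 to 75299907) showed small differences. SRC had an FPKM of 13.7 and 14.3 on TCP and 15.3 and 15.4 on polymer X, which is 0.12 in log2 fold change (95% interval -0.01 to 0.25, adjusted p = 0.08 from limma). The threshold was passed for SRC at 0.16 with median scaling (adjusted p = 0.024 from limma) and at 0.27 with quantile normalization (adjusted p = 0.002 from limma). BCAR1 had an FPKM of 21.5 and 21.1 on TCP and 22.4 and 21.7 on polymer X. Its lowest polymer X value was above its highest TCP value by less than the spread between the polymer X replicates, and the log2 fold change was 0.05 (95% interval -0.08 to 0.17, adjusted p = 0.45 from limma). For BCAR1, quantile normalization gave 0.26 (adjusted p = 0.0015 from limma).

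**Figure D2:**
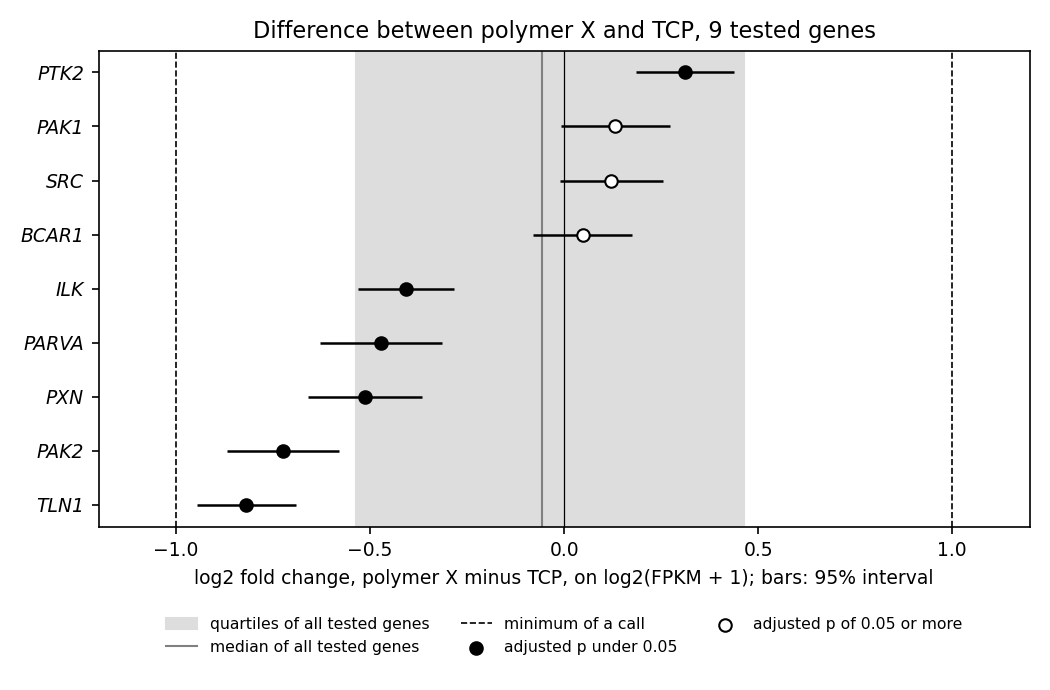
Log2 fold change between polymer X and TCP on log2(FPKM + 1) for the 9 tested genes, with 95% intervals from limma. Filled points have an adjusted p under 0.05, the grey band spans the quartiles of all tested genes (-0.54 to 0.46), the grey line is their median and dashed lines mark the minimum of 1 for a call; TLN1 and PAK2 lie below the band, at -0.82 and -0.73, and none reaches the dashed lines.

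PTK2, which encodes FAK, was the only one of the 9 tested genes that rose in the fit, and its rise depended on the part of the gene that was counted. The transcript with the highest level (NM_001352741, chromosome 8, 141668481 to 142011412) had an FPKM of 19.5 and 20.2 on TCP and 24.99 and 24.7 on polymer X. The polymer X values were higher in both libraries, at 0.31 in log2 fold change with a standard error of 0.06 (limma adjusted p = 0.0006). The table lists 63 PTK2 transcripts, of which 58 reach both ends of the gene, with log2 fold changes between 0.29 and 0.33. A single transcript covers only the 5′ part (NM_001352748, 141760302 to 142011412), and 4 cover only the 3′ part (141668481 to 141728833). The 5′ transcript had an FPKM of 17.2 and 16.1 on TCP and 16.7 and 16.7 on polymer X, so the groups overlapped, and its log2 fold change was 0.00 (adjusted p = 0.99 from limma). In the 3′ transcript with the highest level (NM_001352750), the FPKM was 17.2 and 18.1 on TCP and 25.1 and 24.6 on polymer X, which is 0.47 in log2 fold change (adjusted p = 4.6e-05 from limma). The 3′ part of PTK2 is known to give rise also to FRNK, a separate protein that lacks the kinase domain.

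The ratio of the 3′ to the 5′ PTK2 transcript was 0.998 and 1.12 in the TCP libraries and 1.5 and 1.48 in the polymer X libraries. The test of this difference was chosen after the values were seen. The 3′ minus 5′ log2 fold change was 0.47, with a standard error of 0.10 (limma adjusted p = 0.00078), and leaving out single libraries gave 0.39 to 0.55. It was fitted over the 36 genes that list a 5′ and a 3′ transcript on separate spans, both above the filter, of which 72.2% passed the same threshold, 23 toward the 3′ part and 3 toward the 5′ part. Their median difference was 0.39, with quartiles of 0.10 and 0.73, and 16 of the other genes had a larger difference than PTK2. The shift toward the 3′ part was therefore not particular to PTK2 among these genes, and the part of RNA quality in it was not tested.

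**Figure D3:**
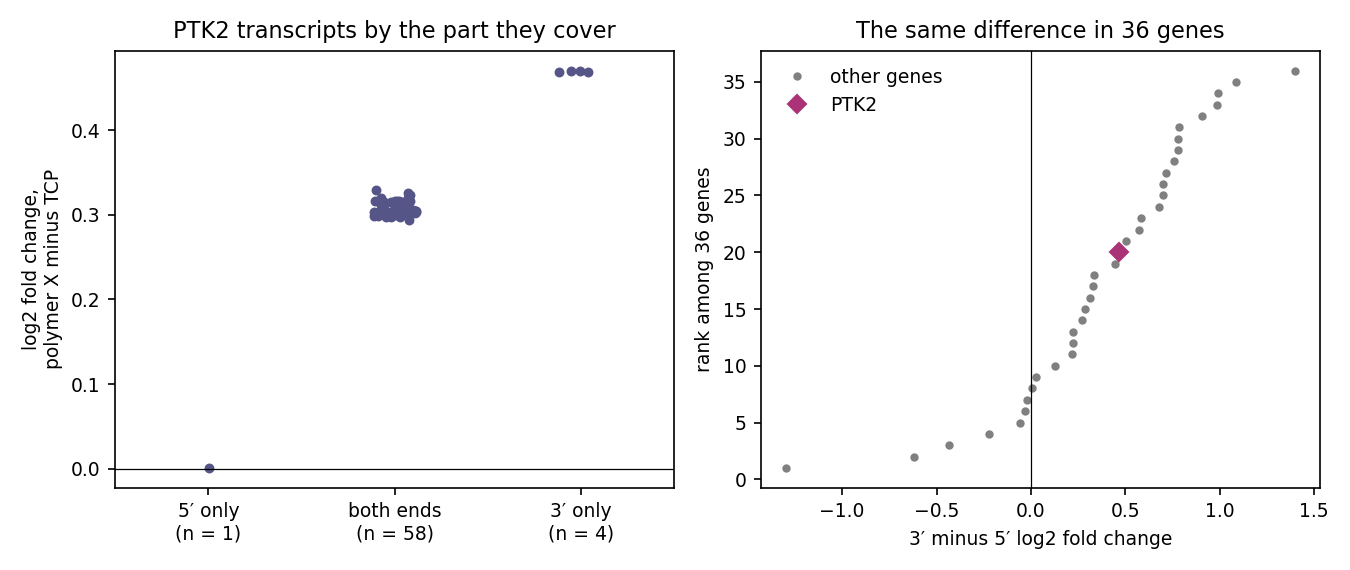
The left plot shows the log2 fold change (polymer X minus TCP) of each of the 63 PTK2 transcripts by the part of the gene it covers, and the right plot ranks the 3′ minus 5′ difference in log2 fold change over 36 genes. The 5′ transcript lies at 0.00 and the 3′ transcripts near 0.47, and PTK2 lies in the middle of the ranked genes.

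PTK2B encodes PYK2, the relative of FAK that responds to calcium, and it was the gene with the lowest level. Its transcript with the highest level (NM_173175, chromosome 8, 27183081 to 27316908) had an FPKM of 0.293 and 0.279 on TCP and 0.876 and 0.880 on polymer X, below the filter in all 4 libraries. These values rested on 44 and 49 tags on TCP and on 137 and 140 tags on polymer X. Although low, the groups were far apart, and the ratio of polymer X to TCP was 3.07, with a 95% interval of 2.42 to 3.93 from an exact binomial interval on the summed tags that covers counting error only. With no filter on low values, its log2 fold change was 0.55 (adjusted p = 0.00025 from limma), a scale on which changes at low FPKM are understated. The ratio of PTK2 to PTK2B was 66.5 and 72.4 on TCP and 28.5 and 28.1 on polymer X, so PTK2 remained far the higher of the pair in every library.

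The order of levels changed in its middle part. On TCP it was TLN1, PXN, ILK, PAK2, BCAR1, PARVA, PTK2, SRC, PAK1 and PTK2B, and only PARVA and PTK2 overlapped as neighbors. On polymer X, PTK2 and BCAR1 came before PAK2, and SRC before PARVA, with no overlap between neighbors. The place of PTK2 depended on the transcript used. By its 5′ transcript, at 16.7 and 16.7 on polymer X, PTK2 lay below PAK2, at 20.2 and 18.2. The genes closest to PTK2 in log2(FPKM + 1) over the 4 libraries were ABI2, SLC39A13 and SLC4A2, at Euclidean distances of 0.067, 0.084 and 0.098. Those closest to TLN1 were MAPRE1, VDAC1 and ACLY, at 0.12, 0.13 and 0.14.

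Of 98 other genes of this pathway, in 7 lists written by role, 81 were tested. Of these, 7 were called higher and 8 lower at the minimum of 1, which is 8.64% and 9.88% of them, against 10.7% and 9.45% of all tested genes. At any fold, 45 of 81 fell (55.6%) and 26 rose (32.1%), against 43.6% and 37.4% of all tested genes, and these shares of all genes apply to each list. The median of the log2 fold changes was -0.34. Some of the called genes named below passed the filter in a single group, GRB7 and SORBS2 on polymer X and TLN2 and NEXN on TCP. For these genes a difference was partly built into the selection. For each tested gene named from these lists, the adjusted p from limma was at most 0.0061.

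In the list of talin, kindlin and other integrin regulators, 8 of 10 fell and 2 rose (43.6% and 37.4% of all tested genes). The median log2 fold change was -0.58. Inhibitors of integrin activation are also in this list, of which, named after their values were seen, ITGB1BP1 fell (-0.52) and SHARPIN rose (0.35). TLN2, the talin paralog, was called lower, with an FPKM of 3.48 and 3.34 on TCP and 0.963 and 0.918 on polymer X (log2 fold change -1.18). FERMT2, which encodes kindlin-2, a co-activator of integrins, had 39.5 and 39.997 on TCP and 19.99 and 18.2 on polymer X (-1.02), and its value was -0.96 without polymer X replicate 2, -0.98 with median scaling and -0.78 with quantile normalization, each under the minimum for a call. Vinculin (VCL), which binds talin under tension, was named after its values were seen and fell from 72.7 and 73.3 to 47.2 and 45.6.

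Of the 22 tested actin linkers, 3 were called higher (13.6%) and 4 lower (18.2%), against 10.7% and 9.45% of all tested genes, with a median of -0.35. At any fold, 12 fell and 8 rose. The cross-linker gene ACTN4 (alpha-actinin-4) fell from an FPKM of 248 and 252 to 83.2 and 82.8 (log2 fold change -1.58). NEXN, an actin-binding protein gene, fell from 5.99 and 6.55 to 0.691 and 0.610 (-2.14). In the same list TNS1, encoding the adhesion protein tensin-1, rose from 1.21 and 1.203 to 4.52 and 5.30 (1.42). SORBS2, which encodes an adhesion adaptor, rose from 0.258 and 0.257 to 1.85 and 1.75 (1.16), and its value was 0.65 with quantile normalization. The list thus held large changes in both directions.

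In the list of paxillin relatives and binding partners, 2 of 8 tested genes were called lower and 0 higher by limma. The median was -0.46. Of all tested genes 9.45% were called lower. At any fold 5 of the 8 fell (62.5%) and 3 rose (37.5%), against 43.6% and 37.4% of all tested genes. AJUBA, a LIM domain protein that also acts in Hippo signaling, fell from 28.8 and 29.3 to 6.75 and 6.69 (log2 fold change -1.96). LPXN (leupaxin) fell from 23.6 and 23.3 to 9.19 and 11.5 (-1.11). Without polymer X replicate 1 or with quantile normalization it was -0.96, under the minimum for a call. TGFB1I1, like LPXN a relative of paxillin and named after its values were seen, rose from 8.215 and 7.185 to 11.0 and 9.68 (0.38).

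In the SRC family list, 6 of 12 tested genes rose and 5 fell, against 37.4% and 43.6% of all tested genes, with a median of 0.24. Of these 12, 2 were called higher (16.7%, against 10.7% of all tested genes). GRB7, an adaptor that binds FAK and lies beside ERBB2 in the genome, rose from an FPKM of 0.536 and 0.383 to 5.64 and 5.22 (log2 fold change 2.14). MATK, a relative of the SRC inhibitor CSK, rose from 8.76 and 9.26 to 19.2 and 19.6 (1.03), and it was 0.99 without TCP replicate 1. Named after their values were seen, the SRC paralogs went apart, with YES1 falling from 38.7 and 38.7 to 24.4 and 23.0 and FYN rising from 6.97 and 6.45 to 12.3 and 12.4.

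Among the PAK partners, 8 of 14 tested genes fell (57.1%) and 3 rose (21.4%), against 43.6% and 37.4% of all tested genes, with a median of -0.16. ARHGEF6 (alpha-PIX, an exchange factor that binds PAK) was the call in this list, and it rose from 1.70 and 1.75 to 7.54 and 6.91 (log2 fold change 1.59). The activators RAC1 and CDC42, named after their values were seen, fell from 81.8 and 76.9 to 48.5 and 46.2 and from 145 and 142 to 99.8 and 92.6, while the RAC1 paralog RAC3 rose from 11.9 and 11.2 to 18.4 and 17.8. In the list of CAS adaptors, 4 of 10 fell (40%) and 2 rose (20%), with a median of -0.12, and DOCK3, an exchange factor for RAC, rose from 2.62 and 2.62 to 7.44 and 7.73 (1.25). Of the 5 tested partners of ILK and parvin, 3 fell (60%) and 2 rose (40%), with a median of -0.35 and 0 called by limma. The genes that rose, named after their values were seen, were the PARVA paralog PARVB (0.38) and the PINCH gene LIMS2 (0.82). ILKAP, a phosphatase that binds ILK, had the largest change, from 27.6 and 26.6 to 13.8 and 13.004 (-0.96), and it passed the minimum without polymer X replicate 1 (-1.005) and with a pseudocount of 0.1 (-1.01).

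**Figure D4:**
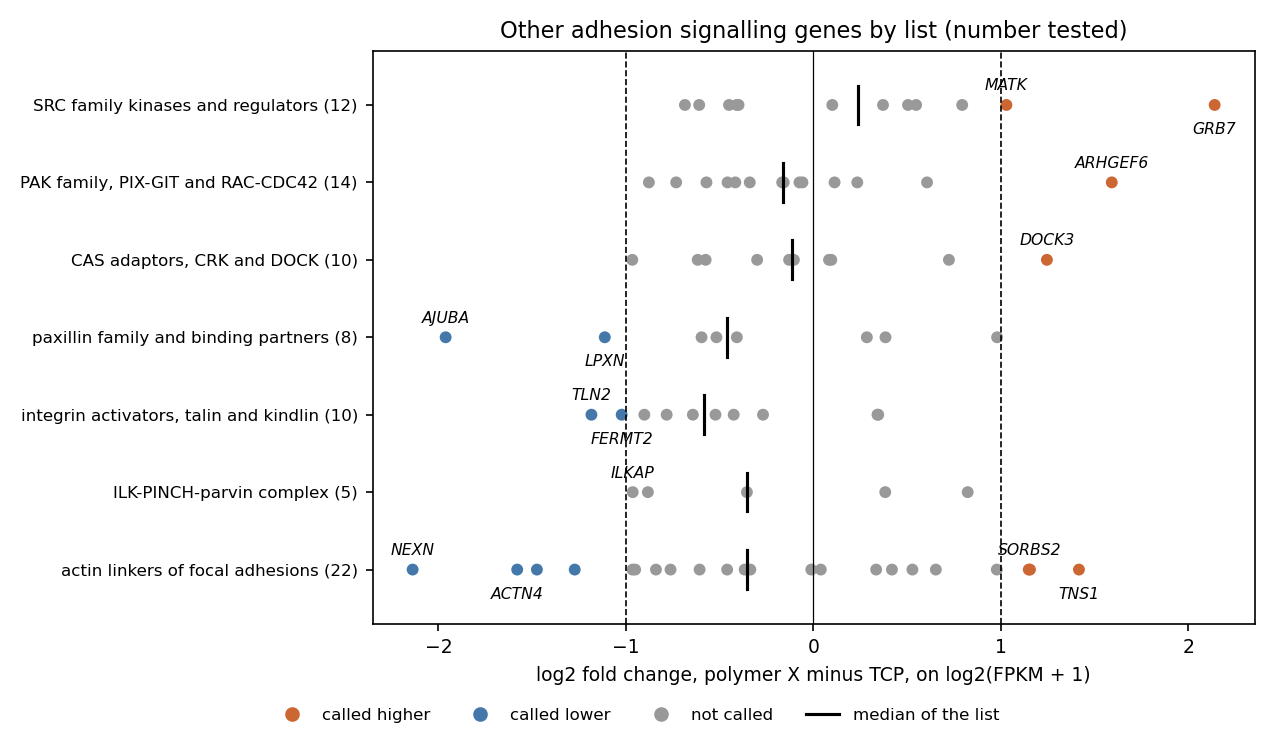
Log2 fold change between polymer X and TCP for the 81 tested pathway genes in 7 lists, with the number tested in brackets; points are genes, black bars are list medians and dashed lines mark the minimum of 1 for a call. The lowest point is NEXN at -2.14 and the highest is GRB7 at 2.14, and the list medians run from -0.58 to 0.24.

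The identity of the cells was checked with markers. Of 6 epithelial and SKOV3 markers, 5 had an FPKM of at least 1 in 2 libraries, while KRT19 stayed below 1. These markers did not share a direction. KRT7, KRT8 and KRT18 fell (log2 fold changes of -0.76, -0.87 and -0.44), while ERBB2 and EPCAM rose (2.13 and 1.05). Each had an adjusted p of at most 4.3e-05 from limma, and EPCAM passed the filter on polymer X only. CD3E was listed at 0 in all 4 libraries, while PTPRC had 1 and 0 tags on TCP and 92 and 106 on polymer X, and PECAM1 had 0 and 0 tags on TCP and 102 and 83 on polymer X, an FPKM of at most 0.530 and 0.573. Of the 4 fibroblast markers, DCN alone passed an FPKM of 1, at 7.26 and 6.20 on polymer X, and the summed level of the list was 0.351 to 0.373 on TCP and 6.51 to 7.68 on polymer X. Of the 4 leukocyte markers, CD68 alone passed an FPKM of 1, with a summed level of 17.2 to 17.4 on TCP and 43.1 to 45.7 on polymer X, and for the 4 endothelial markers the sum was 0.457 to 0.485 and 0.599 to 0.832. The part of these markers in the results was not tested. Tags per library were 38404000 to 44916000.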

How the data were processed

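The authors deposited FPKM values for 50078 RefSeq transcripts, and the file header gives HOMER counting of tags on hg19 exons of both strands. The submitters' processing notes also name STAR 2.4.0 and DESeq. Values multiplied by transcript length fell on whole tags (within 0.1) in all short, low transcripts used, which gave the tags of each library. For each symbol the transcript with the highest mean was used, genes reaching an FPKM of 1 in 2 or more libraries were kept, and log2(FPKM + 1) was fitted with limma 3.58.1 in R 4.3.3 (variance trend, no replicate block, Benjamini-Hochberg adjustment over 11964 genes). A call required an adjusted p below 0.05 together with a log2 fold change of 1 or more in size. "Rose" and "fell" need the adjusted p alone. No count model was run, since the deposited values are FPKM, and the tags recovered from them were not modelled. The procedure was tested on simulated tags in which most genes were unchanged. These data differ, since 81.0% of all tested genes had an adjusted p under 0.05 from limma. The text names all members and, in each list, up to 2 called genes of greatest change per direction, or the gene with the largest change where none was called. The nearest patterns are the 3 genes of smallest distance. The members and lists were chosen with earlier results of these data known. Alternatives were another pseudocount, other filters, scalings, fold minima, summed transcripts, no variance trend, the replicate block and each library left out. Same-numbered libraries deviated together at a correlation of 0.093, so no pairing was assumed. Plots were drawn with matplotlib 3.10.9.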

Additional observations from a re-analysis of the deposited data

How the results depend on the processing

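With the transcripts of a gene summed, 1 of the 10 genes was called higher (PTK2B, log2 fold change 1.05), although its 4 transcripts share tags and are then counted repeatedly. Without a fold minimum, 1 was higher and 5 lower, and at a minimum of 0.5, 3 were lower. Of the pathway genes, 12 of 81 were called higher with a pseudocount of 0.1, against 1837 of all 11964 tested genes. At a mean FPKM of at least 5, 3 of 66 were called higher, against 702 of all 8166. With no fold minimum, 26 of 81 were higher and 45 lower, against 37.4% and 43.6% of all tested genes. At 0.5, 17 were higher and 29 lower, against 23.6% and 26.7%. The median of the members was -0.18 with no filter and -0.18 with summed transcripts, where PTK2B joins, -0.10 with quantile normalization and -0.37 with median scaling. Summed transcripts gave PAK1 to PAK2 ratios of 0.697 on TCP and 1.30 on polymer X, and PTK2 to PTK2B ratios of 1035 and 434. Each library left out in turn, which assumes that a lone library varies like the others, gave 0 members called higher and 0 lower, 6 to 8 pathway genes higher and 7 to 9 lower, and a median of -0.43 to -0.38. With the replicate number as a block, 0 members were higher and 0 lower, 7 pathway genes were higher and 8 lower, and the median was -0.41. Over 12 alternatives, 102 of 108 values of single members kept their direction and side of the threshold, and the other 6 are those of ILK, SRC, PAK1 and BCAR1 given with their results. The cause was not tested. Depth limits PTK2B most.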

Other observations

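Several relatives of these genes were at or near 0 in SKOV3. The SRC family genes LCK and FGR, known from blood cells, had mean FPKM of at most 0.024 and 0.021 in either group. PAK3 and PAK5 had at most 0.0040 and 0.0055, and PARVG at most 0.014. PAG1, which encodes the membrane anchor of CSK, did not pass the filter, and its mean FPKM was 0.122 on TCP and 1.05 on polymer X.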
